A study of Mus musculus with 2 samples.

Results

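Immediate early genes are transcribed within minutes of a stimulus from factors that are already present in the cell, so they need no new protein synthesis to start. Serum, growth factors, mechanical load and the enzymatic release of cells from a plate are textbook triggers, and most of these transcripts decay quickly once the trigger is gone. The 10 genes described here were taken by symbol from the gene list of the deposited matrices: Fos, Fosb, Jun, Junb, Egr1, Egr3, Nr4a1, Ier2, Dusp1 and Atf3. All 10 of 10 symbols were found, each once, among 32285 gene identifiers. Fos, Fosb, Jun and Junb encode subunits of the AP-1 transcription factor. Egr1 and Egr3 encode zinc finger factors, Nr4a1 an orphan nuclear receptor, and Ier2 a small nuclear protein. Atf3 encodes a stress-induced factor of the ATF/CREB family. Dusp1 encodes the phosphatase that switches off MAP kinases, and so is part of the negative feedback on the signal that induces the others.

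Marrow was flushed from the femurs and tibias of C57BL/6J mice, plated in alpha-MEM with 10% serum and freed of unattached cells at 48 h. Both groups carried the Slc31a1 flox/flox alleles, which flank the gene of the plasma membrane copper importer. The controls (WT) were littermates without Cre, and the conditional knockouts (cKO) also carried Prrx1-Cre+/-, a driver active in limb mesenchyme and not aimed at blood cells. Neither an osteogenic medium nor a drug was given, and both libraries carry the same batch label. Age, sex and the number of mice behind a library are not given in the labels.

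Each group was 1 library of the 10x Genomics 3' assay, which tags every captured molecule with a unique molecular identifier (UMI). There was therefore no replicate and no test, and every interval below is a 95% interval that covers counting error only and compares these libraries, not the genotypes. The WT library held 152398639 UMIs and the cKO library 126031142, and 7637 and 5263 cells were kept, with 11 barcodes shared between the libraries. The labels call the cells mesenchymal stem cells, but 48.8% of WT and 26.9% of cKO cells carried the mesenchymal marker profile. Another 38.5% and 50.2% were macrophage-like, and the rest were mostly neutrophil-like, endothelial-like or unnamed. The mesenchymal-like class held 3727 WT cells with a median of 13941 UMIs and 1415 cKO cells with a median of 61899 UMIs, so this class differed in depth between the libraries; over all kept cells the medians were 9706 and 9710 UMIs. Slc31a1 itself stood at 42.4 CPM in WT and 14.3 in cKO mesenchymal-like cells, a ratio of 0.338 (0.317 to 0.361), and at 69.2 and 72.6 CPM in macrophage-like cells, a ratio of 1.05 (0.985 to 1.12). UMIs were summed over the cells of a class and given as CPM, the UMIs of a gene per 1000000 UMIs of that class. The 10 genes and a wider list of related genes were kept out of the genes used for clustering.

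Of the 10 genes, 8 stood at least 1.2-fold higher in cKO than in WT mesenchymal-like cells, and Jun and Atf3 were slightly lower. Among all 8943 genes that reached 10 CPM in one library or both, 3.31% were at least 1.2-fold higher and 6.16% at least 1.2-fold lower. Of the members, 9 passed that filter, Fos, Egr3 and Nr4a1 only through cKO, and Fosb did not pass; the count of 8 takes all 10 without a filter. With the filter set on the pooled level instead (at least 5 CPM over both libraries, which all 10 passed), 3.89% of 10392 genes were at least 1.2-fold higher. The median log2 ratio was 0.43 over the 10 genes and -0.03 over all genes at 10 CPM or more. Together the 10 genes made up 296 CPM in WT and 378 CPM in cKO.

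Among the AP-1 genes, Fos stood at 7.64 CPM in WT and 10.6 in cKO, a ratio of 1.39 (1.26 to 1.53). Fosb, its close relative, stood at 6.10 and 8.49 CPM, a ratio of 1.39 (1.25 to 1.55). Junb stood at 69.4 and 89.7 CPM, a ratio of 1.29 (1.25 to 1.34). Fos, Fosb and Junb were thus all higher in the cKO library, with intervals that did not reach 1. Jun did the opposite: it stood at 73.8 CPM in WT and 67.9 in cKO, a ratio of 0.920 (0.888 to 0.952). In the mesenchymal-like cells under 20000 UMIs the Jun ratio was 1.09 (0.909 to 1.30), and in those at 20000 UMIs or more it was 0.913 (0.881 to 0.946).

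The zinc finger factors and the nuclear receptor showed the widest gaps. Egr3 stood at 6.82 CPM in WT and 13.8 in cKO, a ratio of 2.02 (1.84 to 2.22). Nr4a1 stood at 7.42 and 14.1 CPM, a ratio of 1.91 (1.74 to 2.09). Egr3 and Nr4a1 were the 2 members past 1.5-fold, a size that 0.581% of all genes reached in that direction (0.693% with the pooled filter). Egr1 stood at 46.4 CPM in WT and 69.3 in cKO, a ratio of 1.49 (1.44 to 1.55). Dusp1, the feedback phosphatase, stood at 40.7 and 58.7 CPM, a ratio of 1.44 (1.38 to 1.5). Ier2 stood at 24.6 and 33.5 CPM, a ratio of 1.36 (1.29 to 1.44). Atf3 was the other member that was not higher in cKO, at 13.3 CPM in WT and 12.0 in cKO, a ratio of 0.907 (0.835 to 0.985). Its interval held 1 in the cells at 20000 UMIs or more (0.956, 0.876 to 1.04) and in those under 20000 UMIs (0.814, 0.526 to 1.21).

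Several other quantities differed between the mesenchymal-like cells of the libraries. Macrophage markers made up 381 CPM in WT and 188 in cKO, neutrophil markers 550 and 192 CPM, and mitochondrial transcripts 3.56% and 4.05% of UMIs. In the cells at 20000 UMIs or more (1683 WT with a median of 51654 UMIs, 1135 cKO with a median of 69007), the same 8 genes were at least 1.2-fold higher, and the median log2 ratio of the 10 was 0.48. There macrophage markers stood at 263 and 175 CPM and mitochondrial transcripts at 3.43% and 4.05%. The part of depth, marker RNA and mitochondrial share in the ratios was otherwise not tested.

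**Figure D1:**
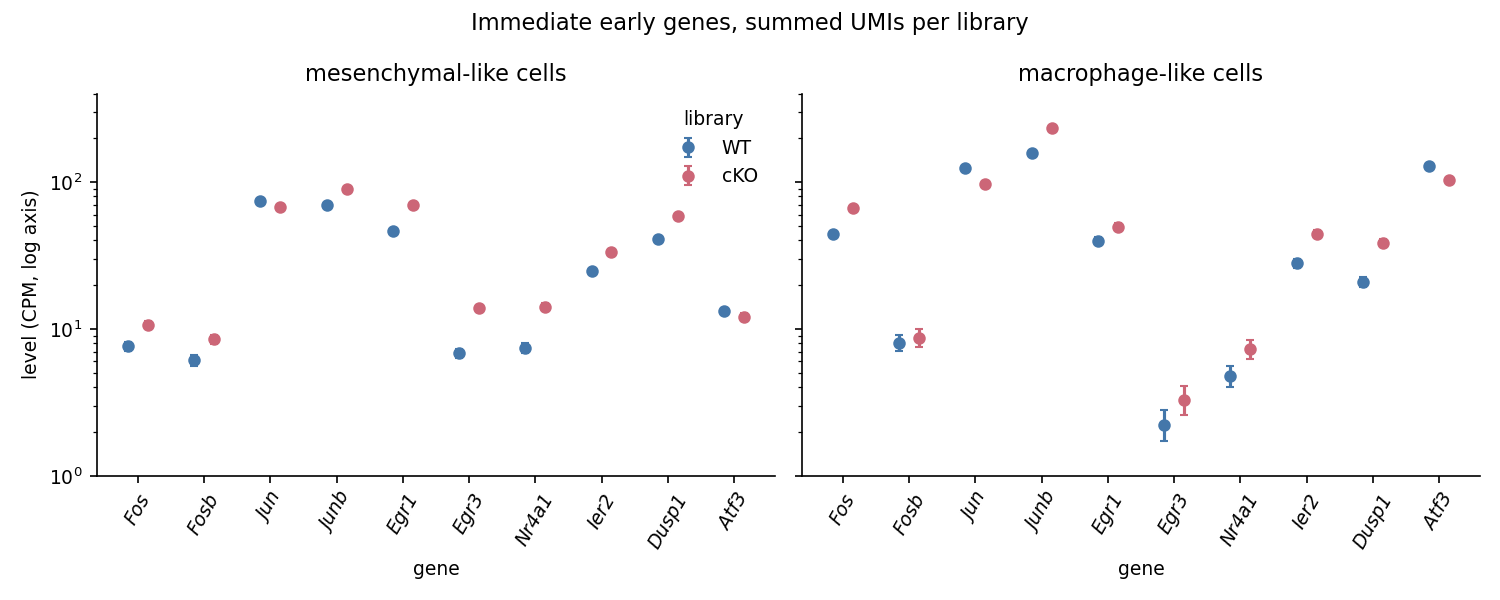
Level of each immediate early gene (CPM, log axis) in mesenchymal-like (left) and macrophage-like (right) cells of the WT and cKO libraries; bars are exact Poisson 95% intervals (counting error only). In mesenchymal-like cells 8 of 10 genes sat higher in cKO and Jun and Atf3 sat lower, from 73.8 to 67.9 and from 13.3 to 12.0 CPM.

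The genomic setting of the genes bears on how their UMIs can be read. In GENCODE M21 on GRCm38, Fos lies at chr12:85473890-85477273 on the plus strand, Fosb at chr7:19302696-19310051 on the minus strand and Egr3 at chr14:70077203-70082614 on the plus strand. Nr4a1 lies at chr15:101254269-101274795 on the plus strand, Ier2 at chr8:84661331-84662852 and Atf3 at chr1:191170296-191218039, both on the minus strand. Atf3 overlaps the gene model Gm24748 on the other strand. Jun (chr4:95049034-95052222, minus strand) overlaps the antisense gene Junos, and Junb (chr8:84974484-84978718, minus strand) overlaps Prdx2 on the other strand. Dusp1 (chr17:26505590-26562128, minus strand) has the longest annotated span of these because of a distant start, and overlaps Ergic1 on the other strand and gene models without a name on both strands. The sources used here do not state how reads in these overlaps were counted. The part of the overlaps in the levels of Jun, Junb, Dusp1 and Atf3 was not tested.

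Promoters are shown for Fos, Nr4a1 and Dusp1, which stood higher in cKO, and for Jun and Atf3, which did not, so that their upstream letters can be set side by side. Each sequence is the 250 bases before the RefSeq start (GRCm38.p6), 5' to 3' on the gene's strand. They are chr12:85473640-85473889 for Fos, chr15:101266596-101266845 for Nr4a1, chr17:26508473-26508722 for Dusp1, chr4:95052223-95052472 for Jun and chr1:191183334-191183583 for Atf3. The Nr4a1, Dusp1 and Atf3 windows lie within the annotated span of their gene, at a start downstream of the most distant one. Capitals mark matches, on either strand, to the core of the cAMP response element (TGACG, read as CGTCA where the match is on the other strand), to the full element (TGACGTCA, which contains the core) and to the TATA box (TATAAA).
Fos: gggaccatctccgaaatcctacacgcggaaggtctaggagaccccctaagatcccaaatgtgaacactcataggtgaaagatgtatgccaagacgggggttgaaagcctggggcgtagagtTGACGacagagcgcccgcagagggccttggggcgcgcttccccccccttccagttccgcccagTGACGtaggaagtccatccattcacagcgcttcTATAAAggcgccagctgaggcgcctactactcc
Nr4a1: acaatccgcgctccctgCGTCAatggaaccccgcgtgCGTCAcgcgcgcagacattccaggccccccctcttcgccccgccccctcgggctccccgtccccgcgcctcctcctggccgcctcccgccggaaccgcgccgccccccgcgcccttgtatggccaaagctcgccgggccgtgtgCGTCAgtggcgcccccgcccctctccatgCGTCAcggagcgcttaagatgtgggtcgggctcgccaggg
Dusp1: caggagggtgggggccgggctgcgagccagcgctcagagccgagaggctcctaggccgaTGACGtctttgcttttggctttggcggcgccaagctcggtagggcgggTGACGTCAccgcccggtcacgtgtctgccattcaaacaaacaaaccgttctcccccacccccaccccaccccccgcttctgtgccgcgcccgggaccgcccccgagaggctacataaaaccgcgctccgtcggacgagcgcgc
Jun: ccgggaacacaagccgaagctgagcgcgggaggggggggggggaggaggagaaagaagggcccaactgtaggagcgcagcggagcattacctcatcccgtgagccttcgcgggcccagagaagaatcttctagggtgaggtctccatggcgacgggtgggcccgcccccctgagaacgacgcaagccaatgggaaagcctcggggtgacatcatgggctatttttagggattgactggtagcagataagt
Atf3: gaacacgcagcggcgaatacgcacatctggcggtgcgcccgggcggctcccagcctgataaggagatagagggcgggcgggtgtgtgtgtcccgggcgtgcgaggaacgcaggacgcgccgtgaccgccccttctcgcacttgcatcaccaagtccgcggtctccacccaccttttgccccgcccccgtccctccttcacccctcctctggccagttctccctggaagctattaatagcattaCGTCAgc
Of the 7 members with a window that was used (Fos, Fosb, Jun, Junb, Nr4a1, Dusp1 and Atf3), 6 held the TGACG core, against 17.8% of 32851 promoters of the same length. Nr4a1 held 4 matches, at 233, 213, 69 and 40 bases before the start, and Fos held 2, at 129 and 66. Dusp1 held the full TGACGTCA at 143 bases before the start, a motif found in 1.55% of promoters, and a further core at 191. Fosb held 1 core match at 60 bases, Junb 1 at 106 and Atf3 1 at 7, and the Jun window held none of the motifs searched. The core was thus present in the Atf3 window, whose gene was lower in cKO, as well as in those of 5 genes that were higher. The Fos window also held a TATA box at 33 bases, present in 12.4% of promoters. No window held an AP-1 site (TGANTCA, in 6.75% of promoters), an EGR site (GCGTGGGCG, in 0.536%) or a CArG box, the serum response factor site, by the strict consensus (in 1.47%). A match is a run of letters and not a bound site, and the absence of one concerns exact matches in this window alone. Near matches were not searched for. The Jun window, for example, holds TGACATCA, which differs from TGACGTCA by 1 letter.

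In macrophage-like cells, which the Cre driver is not aimed at, a similar division appeared. There 7 of 10 genes were at least 1.2-fold higher in cKO, and Jun and Atf3 were both at least 1.2-fold lower. There 6.94% of 8865 genes were at least 1.2-fold higher and 11.9% at least 1.2-fold lower (7.25% and 13.0% with the pooled filter). Egr3, Nr4a1 and Fosb lay under 10 CPM in both libraries, and Egr3 also failed the pooled filter; the count takes all 10. The median log2 ratio of the 10 genes was 0.46, against -0.02 over all genes at 10 CPM or more.

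Dusp1 showed the widest gap in this class, at 20.8 CPM in WT and 38.5 in cKO, a ratio of 1.85 (1.67 to 2.05). Ier2 stood at 27.9 and 44.5 CPM, a ratio of 1.60 (1.46 to 1.75). Nr4a1 stood at 4.78 and 7.25 CPM, a ratio of 1.52 (1.22 to 1.90). These were the 3 members past 1.5-fold, of which Nr4a1 lay under 10 CPM in both libraries. Of the genes that reached 10 CPM in one library or both, 0.677% were at least 1.5-fold higher. Fos stood at 44.2 and 66.1 CPM, a ratio of 1.49 (1.39 to 1.61). Junb stood at 157 and 234 CPM, also a ratio of 1.49 (1.43 to 1.55). Egr1 stood at 39.7 and 49.5 CPM, a ratio of 1.25 (1.15 to 1.35), and the AP-1 gene Fos and the zinc finger gene Egr1 were therefore higher in both classes. Egr3 rested on few UMIs, at 2.21 and 3.26 CPM, a ratio of 1.47 (1.06 to 2.06). Fosb stood at 8.05 and 8.68 CPM, a ratio of 1.08 (0.894 to 1.30) that held 1. The lower pair was further apart than in mesenchymal-like cells. Jun stood at 125 and 97.4 CPM, a ratio of 0.779 (0.740 to 0.820), and Atf3 at 128 and 103 CPM, a ratio of 0.801 (0.762 to 0.842).

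The ratio of a gene in mesenchymal-like cells divided by its ratio in macrophage-like cells shows where the classes parted within the counting error. It was below 1 for Dusp1 (0.780, 0.700 to 0.869), Ier2 (0.852, 0.768 to 0.945) and Junb (0.868, 0.826 to 0.913), whose gap was wider in macrophage-like cells. It was above 1 for Egr1 (1.2, 1.10 to 1.31), Fosb (1.29, 1.04 to 1.60), Jun (1.18, 1.11 to 1.25) and Atf3 (1.13, 1.03 to 1.25). For Fos, Egr3 and Nr4a1 the interval held 1. With 1 library a group this compares 2 classes of the same 2 libraries, and a difference between genotypes was not tested.

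The 3 largest macrophage-like clusters gave close values for Dusp1, Junb, Jun and Atf3. Dusp1 had ratios of 1.85, 1.84 and 1.85 in the clusters numbered 0, 3 and 4, and Junb had 1.53, 1.51 and 1.53. Jun had 0.692, 0.771 and 0.786, and Atf3 had 0.792, 0.769 and 0.791. Dusp1 and Junb were thus higher, and Jun and Atf3 lower, in each of the 3. Of the 10 members, 7, 6 and 6 were at least 1.2-fold higher in these clusters, and 2, 2 and 3 at least 1.2-fold lower. The share of all genes at that size is not given here for single clusters, so these counts are descriptions only.

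Neutrophil-like cells (332 WT, 361 cKO) gave a thinner result in summed levels. Junb stood at 33.4 and 47.0 CPM, a ratio of 1.41 (1.09 to 1.82), and Ier2 at 81.7 and 112 CPM, a ratio of 1.37 (1.16 to 1.61). Egr3 was seen as 1 UMI in WT and 13 in cKO, a ratio whose counting interval ran from 1.41 to 399. The other 7 members had intervals that held 1. Of the 10 genes 5 were at least 1.2-fold higher here, where 11.1% of 8332 genes were. That count takes in Egr3 and Nr4a1, which lay under 10 CPM in both libraries; 5 members passed that filter. With the pooled filter, which 7 members passed, 12.4% of 9581 genes were at least 1.2-fold higher.

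Endothelial-like cells (237 WT, 92 cKO) did not show this division in their summed levels. There 1 of 10 genes was at least 1.2-fold higher, against 15.1% of 9283 genes, and 4 were at least 1.2-fold lower, against 18.5% (16.7% and 19.9% with the pooled filter, which all 10 passed). Egr3, which passed 10 CPM only through cKO, stood at 4.44 and 10.6 CPM, a ratio of 2.38 (1.29 to 4.58). Nr4a1 stood at 36.8 and 21.5 CPM, a ratio of 0.584 (0.428 to 0.789), and Jun at 121 and 95.6 CPM, a ratio of 0.787 (0.677 to 0.914). The other 7 members had intervals that held 1, and the median log2 ratio of the 10 was -0.09, against -0.02 over all genes at 10 CPM or more. This cluster also carried immunoglobulin transcripts, with B cell markers at 11274 CPM in WT and 17095 in cKO. Its median depth was 7208 UMIs in WT and 24260.5 in cKO. Finer clustering (resolution 1.0) gave an endothelial-like cluster of 123 WT and 86 cKO cells. It also gave a cluster led by Igha, Ighg1 and Jchain, with 113 WT and 6 cKO cells. The part of depth and of such immunoglobulin-rich cells in the endothelial-like values was not tested. Whether the endothelial-like ratios differ from those of the other classes was not tested.

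Each gene had its own order of levels over the cell classes, read here as CPM of 1 gene across classes and not between genes. Atf3 was highest in macrophage-like cells, at 128 CPM in WT and 103 in cKO, followed by endothelial-like cells at 53.5 and 49.6. Mesenchymal-like cells held it at 13.3 and 12.0 CPM and neutrophil-like cells at 7.04 and 5.85. Dusp1 was highest in endothelial-like cells, at 194 and 186 CPM, then mesenchymal-like (40.7 and 58.7), macrophage-like (20.8 and 38.5) and neutrophil-like (8.80 and 9.15). Both libraries gave the same order for these genes.

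Fos and Egr3 were ordered quite differently. Fos was lower in mesenchymal-like cells, at 7.64 and 10.6 CPM, than in macrophage-like (44.2 and 66.1) and neutrophil-like cells (39.4 and 43.0). The osteoclast-like cells, 31 in WT and 79 in cKO, held Fos at 129 and 58.7 CPM. Egr3 was highest in lymphoid cells: 61.4 and 82.9 CPM in B cell-like cells (46 and 57 cells) and 30.5 and 56.2 in T or NK cell-like cells (45 and 37 cells). It was next in mesenchymal-like cells, at 6.82 and 13.8 CPM, and stood at 2.21 and 3.26 in macrophage-like cells. The B cell-like cells had no Fos UMI in either library, which allows up to 11.3 CPM in WT and 15.3 in cKO by the exact upper bound. The lymphoid and osteoclast-like values rest on few cells, and their intervals overlap between the libraries except for Fos in osteoclast-like cells. Osteoclast-like cells held mesenchymal markers at 590 CPM in WT and 2513 in cKO, and B cell markers at 34.9 and 1456 CPM. The part of this other RNA in their Fos values was not tested.

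The levels of the other genes overlapped more across the classes or had another order. Egr1 stood between 23.6 and 46.4 CPM in the neutrophil-like, macrophage-like, endothelial-like and mesenchymal-like cells of WT. Ier2 was at 24.6 and 33.5 CPM in the mesenchymal-like and 27.9 and 44.5 in the macrophage-like class, and reached 81.7 and 112 CPM in neutrophil-like cells. Nr4a1 was higher in endothelial-like cells (36.8 and 21.5 CPM) than in the mesenchymal-like (7.42 and 14.1) or macrophage-like class (4.78 and 7.25). Jun was higher in macrophage-like than in mesenchymal-like cells in both libraries, as was Junb. Fosb stood at 8.05 and 8.68 CPM in macrophage-like and 6.10 and 8.49 in mesenchymal-like cells.

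The mesenchymal-like cells were split into states without using these genes. Deep cells fell into state 0, which stayed unnamed and was led by Gzmd, Cemip and Ptgs2 (822 WT, 630 cKO cells), state 3, cycling-like (493 and 383), and state 4, pre-osteoblast-like (294 and 132). State 1 (1059 and 188 cells) and state 2 (947 and 60) were shallow and led by genes of blood cells such as Ltf, Msr1, Ighm and C1qb.

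In state 0, 8 of 10 genes were at least 1.2-fold higher in cKO, against 4.11% of 8670 genes, and 5 were past 1.5-fold, against 0.692%. Fos, Fosb, Egr3 and Nr4a1 reached 10 CPM only in cKO; with the pooled filter, which all 10 passed, the shares were 5.05% and 0.853% of 10084 genes. Egr3 stood at 7.36 and 16.4 CPM, a ratio of 2.22 (1.94 to 2.55), and Nr4a1 at 8.61 and 16.5 CPM, a ratio of 1.92 (1.69 to 2.18). Fosb stood at 5.49 and 10.2 CPM, a ratio of 1.87 (1.59 to 2.20), and Fos at 6.96 and 11.5 CPM, a ratio of 1.66 (1.43 to 1.92). Jun (0.976, 0.929 to 1.02) and Atf3 (1.05, 0.933 to 1.19) had intervals that held 1.

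In cycling-like cells 7 of 10 genes were at least 1.2-fold higher, against 4.92% of 8971 genes. Egr3 and Nr4a1 passed 10 CPM only through cKO and Fos and Fosb did not pass; with the pooled filter, which all 10 passed, the share was 6.03% of 10297 genes. Nr4a1 stood at 4.69 and 11.8 CPM, a ratio of 2.52 (2.06 to 3.09), the largest of any member in states 0, 1, 3 and 4. Egr3 stood at 6.29 and 11 CPM, a ratio of 1.75 (1.45 to 2.11), and Dusp1 at 24.3 and 42.2 CPM, a ratio of 1.74 (1.58 to 1.91). Fos did not share this: it stood at 6.66 and 6.53 CPM, a ratio of 0.980 (0.798 to 1.2).

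Pre-osteoblast-like cells departed from the other deep states. Of the 10 genes 5 were at least 1.2-fold higher, against 9.09% of 8745 genes, and 17.3% of genes were at least 1.2-fold lower. Fos and Fosb passed 10 CPM only through cKO, and Egr3 and Nr4a1 did not pass; with the pooled filter, which 9 passed, 10.2% of 10091 genes were at least 1.2-fold higher. Jun stood at 83.3 CPM in WT and 46.9 in cKO, a ratio of 0.563 (0.499 to 0.634), far from its 0.976 in state 0. Egr1 stood at 22.6 and 44.4 CPM, a ratio of 1.96 (1.67 to 2.30). Ier2 stood at 13.0 and 21.0 CPM, a ratio of 1.62 (1.30 to 2.02), and Fos at 8.14 and 13.1 CPM, a ratio of 1.61 (1.22 to 2.14). Nr4a1 (0.923, 0.637 to 1.33) and Dusp1 (0.900, 0.758 to 1.07), both clearly higher in cKO in states 0 and 3, had intervals that held 1. All 13 listed cytoskeletal targets of serum response factor were lower in this state, 10 of them at least 1.2-fold, with a median log2 ratio of -0.41 against -0.03 over all genes. Macrophage markers stood at 191 and 121 CPM in this state and mitochondrial transcripts at 4.20% and 4.47% of UMIs.

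State 1 held macrophage markers at 1384 and 1272 CPM and neutrophil markers at 2652 and 1034 CPM, and 13.0% of 9537 genes were at least 1.2-fold higher in it. Of the members 6 of 10 were at least 1.2-fold higher, with Egr3 at 9.24 and 16.5 CPM (ratio 1.79, 1.28 to 2.47) and Junb at 82.3 and 126 CPM (ratio 1.53, 1.37 to 1.71). Fosb went the other way on 111 and 18 UMIs, at 8.69 and 5.21 CPM, a ratio of 0.599 (0.343 to 0.992). Egr3 and Nr4a1 passed 10 CPM only through cKO and Fosb did not pass; with the pooled filter, which all 10 passed, 13.7% of 10764 genes were at least 1.2-fold higher. The part of the blood cell RNA in these values was not tested.

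State 2 rests on 60 cKO cells, and its genes were spread widely between the libraries: 18.3% of 9378 genes were at least 1.2-fold higher in cKO and 45.8% at least 1.2-fold lower. Of the members 6 of 10 were at least 1.2-fold higher and 2, Jun and Ier2, at least 1.2-fold lower. Fos stood at 8.68 CPM in WT (45 UMIs) and 53.5 in cKO (32 UMIs), a ratio of 6.16 (3.79 to 9.92), and Nr4a1 at 10.6 and 43.5 CPM, a ratio of 4.10 (2.47 to 6.65). Egr3 stood at 7.53 and 21.7 CPM, a ratio of 2.89 (1.42 to 5.53), and Atf3 at 14.9 and 28.4 CPM, a ratio of 1.91 (1.06 to 3.27). Fos, Fosb and Egr3 passed 10 CPM only through cKO. The other 6 members had intervals that held 1. Macrophage markers stood at 892 and 457 CPM in this state and neutrophil markers at 1086 and 283 CPM, and their part in these values was not tested.

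**Figure D2:**
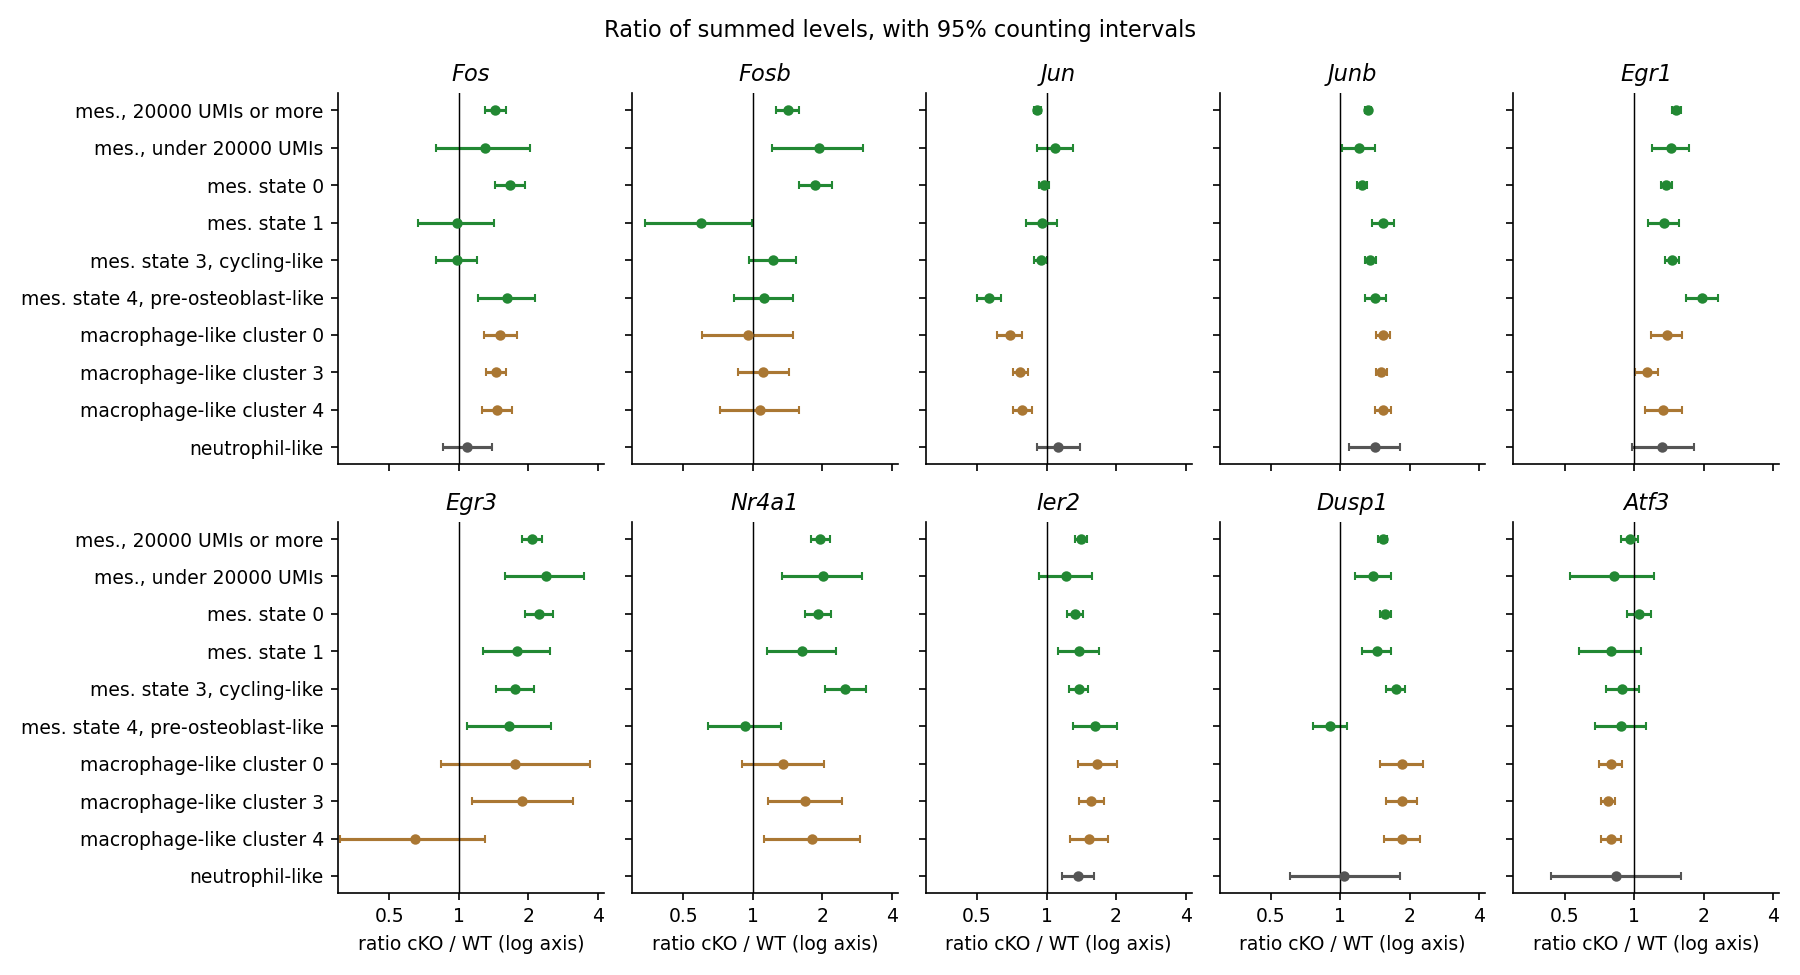
Ratio of the summed level in cKO over WT (log axis) for each gene in mesenchymal-like cells split by depth and state (green), in the 3 largest macrophage-like clusters (brown) and in neutrophil-like cells (grey); bars are 95% intervals that cover counting error only, and a value with under 10 UMIs in a library is not drawn. The points of Junb and Egr1 lay to the right of 1 in every row drawn, and Jun lay furthest to the left in pre-osteoblast-like cells, at 0.563.

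A higher sum over a class can come from a few cells with a strong burst or from many cells with slightly more. To set cells of both libraries at 1 depth, each mesenchymal-like cell was thinned at random to 20000 UMIs, which left out 2044 WT and 280 cKO cells with fewer. A member counted as detected with at least 1 UMI. At this depth Egr3 was detected in 10.5% (9.09 to 12.1) of WT and 17.6% (15.4 to 20) of cKO cells, and Nr4a1 in 11.9% (10.4 to 13.6) and 17.8% (15.6 to 20.1). Egr1 was detected in 38.3% (35.9 to 40.6) and 49.5% (46.6 to 52.5), Ier2 in 32.6% and 41.9%, Dusp1 in 39.8% and 47.2%, and Junb in 62.4% and 70.7%. Detection of these 6 genes was higher in cKO, with intervals that did not overlap. Fos (10.9% and 13.0%), Fosb (9.09% and 9.60%) and Atf3 (19.7% and 18.9%) had overlapping intervals, and Jun was detected in 62.3% of WT and 56.5% of cKO cells.

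Without thinning the detected shares were 11.7% and 29.7% for Egr3 and 54.8% and 71.8% for Jun, over cells whose median depths were 13941 and 61899 UMIs. For Jun the thinned and unthinned shares differed in direction; they differ both in depth and in the cells kept, and the thinned shares are the ones read here. No class in these libraries is known to lack the genes. For scale, Egr3 was detected among macrophage-like cells thinned to 5000 UMIs in 1.00% of the WT and 1.38% of the cKO cells (median depth before thinning 9393 and 7921), and in 2.98% and 6.94% of mesenchymal-like cells at that same depth.

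Cells with several members at once were more frequent in cKO. At least 3 of the 10 genes were detected in 58.3% of WT and 68.9% of cKO cells, a difference of 10.6 percentage points (7 to 14.1). At least 5 were detected in 17.3% (15.5 to 19.2) and 25.8% (23.3 to 28.5), a difference of 8.52 points (5.43 to 11.7). At least 7 were detected in 2.61% and 4.58%, a difference of 1.97 points (0.583 to 3.49). The mean number per cell was 2.98 in WT and 3.43 in cKO, and the median was 3 in both. At least 1 was detected in 95.8% and 97.4% of cells, so cells with none of the 10 were few in either library. Without thinning, at least 5 were detected in 25.9% of WT and 58.7% of cKO cells.

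The members occurred in the same cells more often than their separate shares give, and they did so in both libraries. If the 10 genes had been detected independently at these shares, at least 5 would have been found in 12.0% of WT and 21.0% of cKO cells, against the 17.3% and 25.8% seen. For at least 7 the product of the shares gives 0.443% and 1.26%, against 2.61% and 4.58%. Over the 45 pairs of members, the share of cells with both genes divided by the product of the separate shares had a median of 1.16 in WT and 1.14 in cKO, and was above 1 for 42 and 41 pairs. Thinned to 5000 UMIs, the medians were 1.17 in WT and 1.26 in cKO, over 41 and 42 pairs. The median Pearson's r of log counts over the pairs at 20000 UMIs was 0.079 in WT and 0.100 in cKO. Egr1 and Ier2 had the closest counts of any pair in each library, with Pearson's r of log counts across cells of 0.37 in WT and 0.38 in cKO. Egr3 and Nr4a1 were detected together in 1.84% of WT and 5.81% of cKO cells, against products of 1.26% and 3.14%. Cells of 1 library share its preparation and free RNA, so these values describe the libraries and carry no p.

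**Figure D3:**
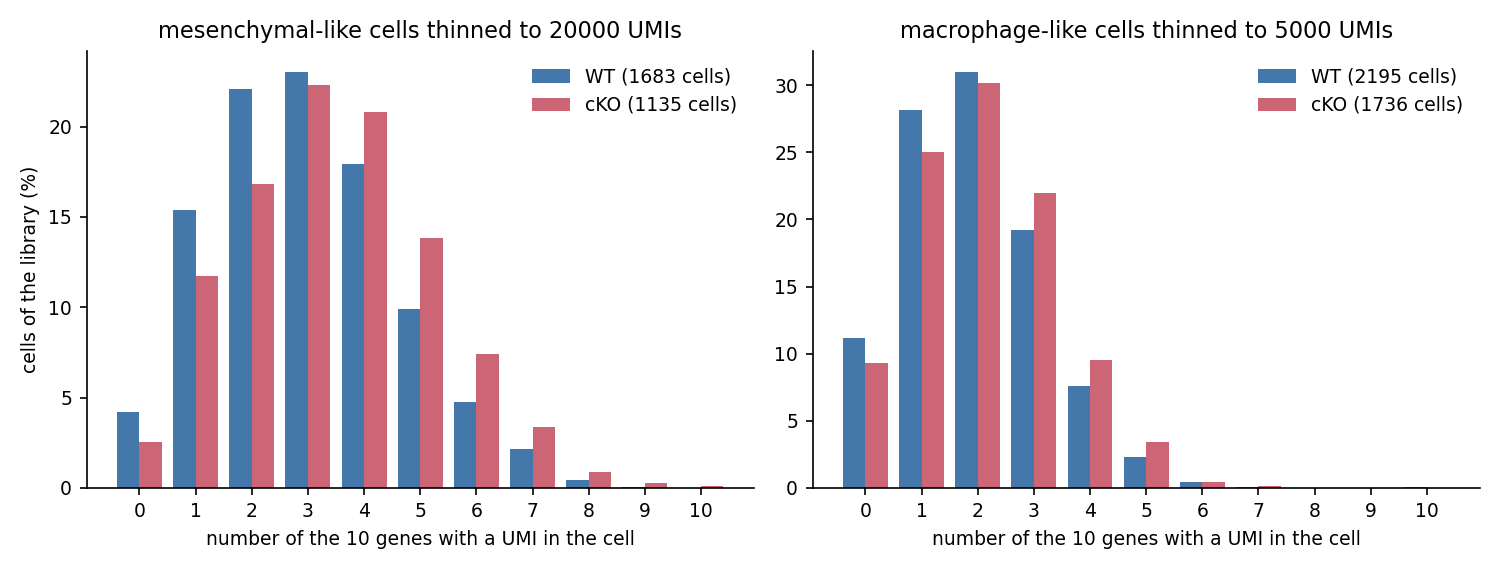
Share of cells (%) by the number of the 10 immediate early genes with a UMI, in mesenchymal-like cells thinned to 20000 UMIs (left) and macrophage-like cells thinned to 5000 UMIs (right); bars are the WT and cKO libraries. The whole cKO distribution was moved to the right, with 25.8% against 17.3% of mesenchymal-like cells at 5 genes or more.

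The summed UMIs of the 10 genes per thinned mesenchymal-like cell were higher in cKO over most of the range of cells. The 10th percentile was 1 UMI in WT and 2 in cKO, the 25th 2 and 3, the median 5 and 6, and the 75th 8 and 10. The 90th percentile was 12 and 16, the 95th 15 and 19, and the 99th 25.2 and 36.3. The mean was 5.96 and 7.84 UMIs, and the coefficient of variation 0.890 and 0.894. The 10% of cells with the most of these UMIs held 29.3% of them in WT and 29.3% in cKO. In the remaining cells the mean was 4.68 UMIs in WT and 6.16 in cKO, and in the top 10% it was 17.5 and 22.9. The higher sum in cKO was thus present in both sets of cells, and the share carried by the top 10% was nearly equal.

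**Figure D4:**
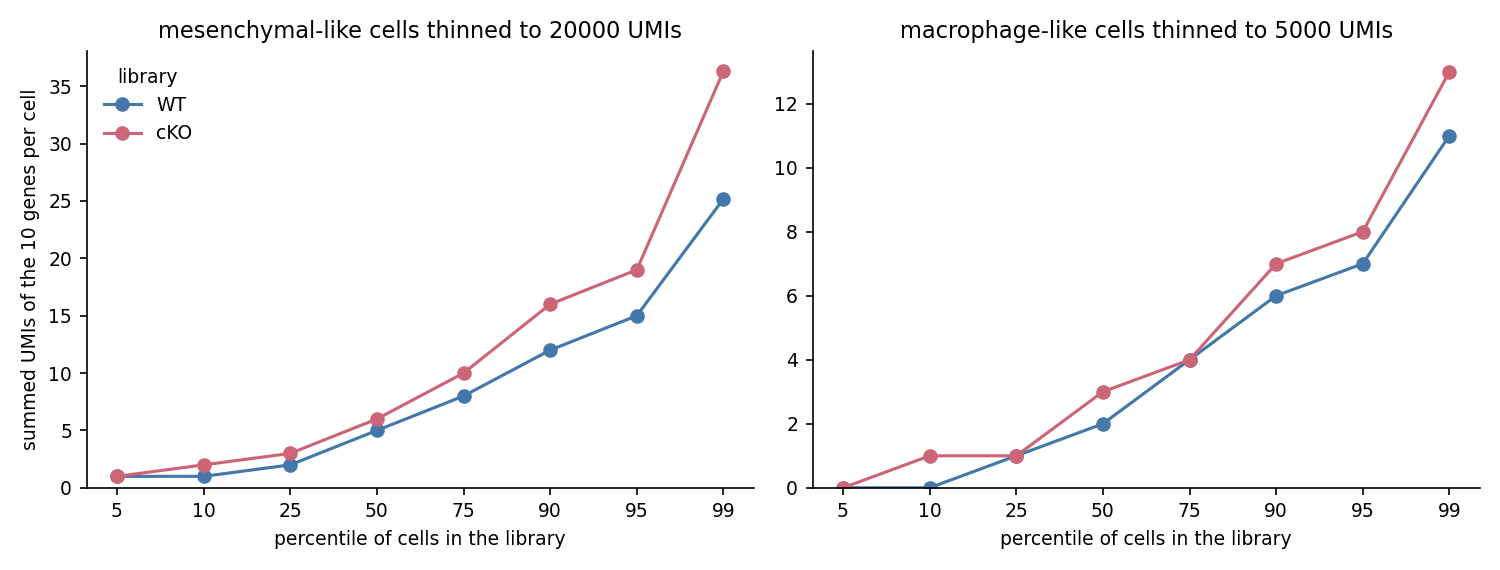
Percentiles of the summed UMIs of the 10 genes per cell in mesenchymal-like cells thinned to 20000 UMIs (left) and macrophage-like cells thinned to 5000 UMIs (right), for the WT and cKO libraries. In mesenchymal-like cells the cKO line ran above the WT line from the 10th percentile (2 against 1 UMI) to the 99th (36.3 against 25.2).

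Within the states, at least 5 members were detected in 18.6% of 790 WT and 28.4% of 598 cKO cells of state 0 at 20000 UMIs. In cycling-like cells the shares were 13.6% of 479 and 21.8% of 358 cells. In pre-osteoblast-like cells they were 10.2% (6.65 to 14.8) of 235 and 12.4% (6.94 to 19.9) of 113, with intervals that overlapped widely. Pre-osteoblast-like cells thus had the lowest share in each library among these 3 states. In state 1, which carried blood cell RNA, the share was 32.9% (25.4 to 41.0) of 149 WT cells. No cKO share is given for state 1 at this depth. In macrophage-like cells thinned to 5000 UMIs (2195 WT, 1736 cKO), at least 3 members were detected in 29.7% and 35.5% of cells, a difference of 5.83 points (2.88 to 8.78). At least 5 were detected there in 2.87% and 4.03%, and the top 10% of cells held 28.0% and 28.3% of the summed UMIs. The summed UMIs of the macrophage-like cells had the same 25th percentile (1 UMI) and 75th percentile (4 UMIs) in both libraries, and medians of 2 and 3. Endothelial-like cells at that depth (158 WT, 78 cKO) had a mean of 3.30 and 3.79 summed UMIs. At least 3 members were detected in 42.4% and 39.7% of them, a difference of -2.66 points (-15.4 to 10.7). Neutrophil-like cells (240 WT, 311 cKO) had means of 1.08 and 1.73 UMIs. At least 3 members were detected in 5.00% and 14.1% of them, a difference of 9.15 points (4.22 to 14.0).

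The genes whose counts went most with the members across thinned mesenchymal-like cells were then listed, out of 8934 candidates, by the lower of the 2 libraries' Pearson's r with the summed member count. Ccn1 came first (r of 0.35 in WT and 0.37 in cKO) and Ccn2 second (0.33 and 0.30); both encode secreted matricellular proteins. Phlda1 (0.27 and 0.27), Btg2, Pdlim5, Klf6, Vcl, Gcnt2 and Ptgs2, the inducible cyclooxygenase (0.23 and 0.23), were also among the first 10. Of the genes named, 6 were in the wider list of immediate early genes: Ccn1, Ccn2, Phlda1, Btg2, Klf6 and Ptgs2. Likeness within a library did not go with a higher level in cKO for each of them. Ptgs2 stood at 43.1 and 87.6 CPM, a ratio of 2.03 (1.96 to 2.11), and Phlda1 at 48.8 and 77.0 CPM, a ratio of 1.58 (1.52 to 1.64). Pdlim5 had 0.934 (0.919 to 0.948), Vcl 0.953 (0.941 to 0.965) and Gcnt2 0.948 (0.914 to 0.984). Among the members themselves, Egr1 went most with the sum of the other 9 (r of 0.30 and 0.34), followed by Ier2 (0.26 and 0.31). Atf3 went least with them, at 0.10 and 0.12. These correlations are over 1683 WT and 1135 cKO cells of 1 library each and are descriptions.

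Other genes of the pathway were read from lists written with earlier results of these data known. Of 35 further immediate early genes, 27 reached 10 CPM among the mesenchymal-like cells, 21 of them were higher in cKO and 12 at least 1.2-fold, a size that 3.31% of all genes reached in that direction. Their median log2 ratio was 0.22 (0.26 over all 35), against 0.43 for the 10 members. Among the genes that reached 10 CPM, the largest gaps after Ptgs2 and Phlda1 were in Nfkbiz (ratio 1.44, 1.37 to 1.52) and Maff (1.39, 1.30 to 1.49), a small relative of the AP-1 proteins. Of 17 genes of ERK pathway feedback and output, 11 passed, of which 7 were higher and 4 lower at any size, with a median of 0.17. At 1.2-fold, 5 were higher, again against 3.31% of all genes, and 0 lower, against 6.16%. Etv4, a factor that acts downstream of ERK, had a ratio of 1.78 (1.63 to 1.94). The phosphatase genes Dusp5 and Dusp6 had 1.59 (1.48 to 1.71) and 1.49 (1.40 to 1.60), and Errfi1, an inhibitor of the EGF receptor, 1.35 (1.32 to 1.39). Spry1 (0.878, 0.832 to 0.927) and Spred2 (0.885, 0.846 to 0.925), which encode inhibitors of the same pathway, were lower in cKO.

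The upstream factors, the kinases, CREB and serum response factor genes whose proteins act before the members, lay close to the median of all genes. Of 17 listed, 16 passed, 1 was at least 1.2-fold higher, Srf at 1.26, and the median was -0.02. Of 13 heat shock genes, which cell handling also induces, 12 passed, 1 was at least 1.2-fold higher, Hspb1 at 1.28, and the median was 0.05; their summed level was 5302 CPM in WT and 5448 in cKO. None of 10 ATF4 stress response genes (median 0.02), 13 cytoskeletal targets of serum response factor (median 0.00) and 10 reference genes (median 0.04) reached 1.2-fold in either direction. In macrophage-like cells 25 of the 35 further immediate early genes passed, 12 were at least 1.2-fold higher and 2 at least 1.2-fold lower, against 6.94% and 11.9% of all genes there, with a median of 0.15. The heat shock list had a median of 0.03 there.

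**Figure D5:**
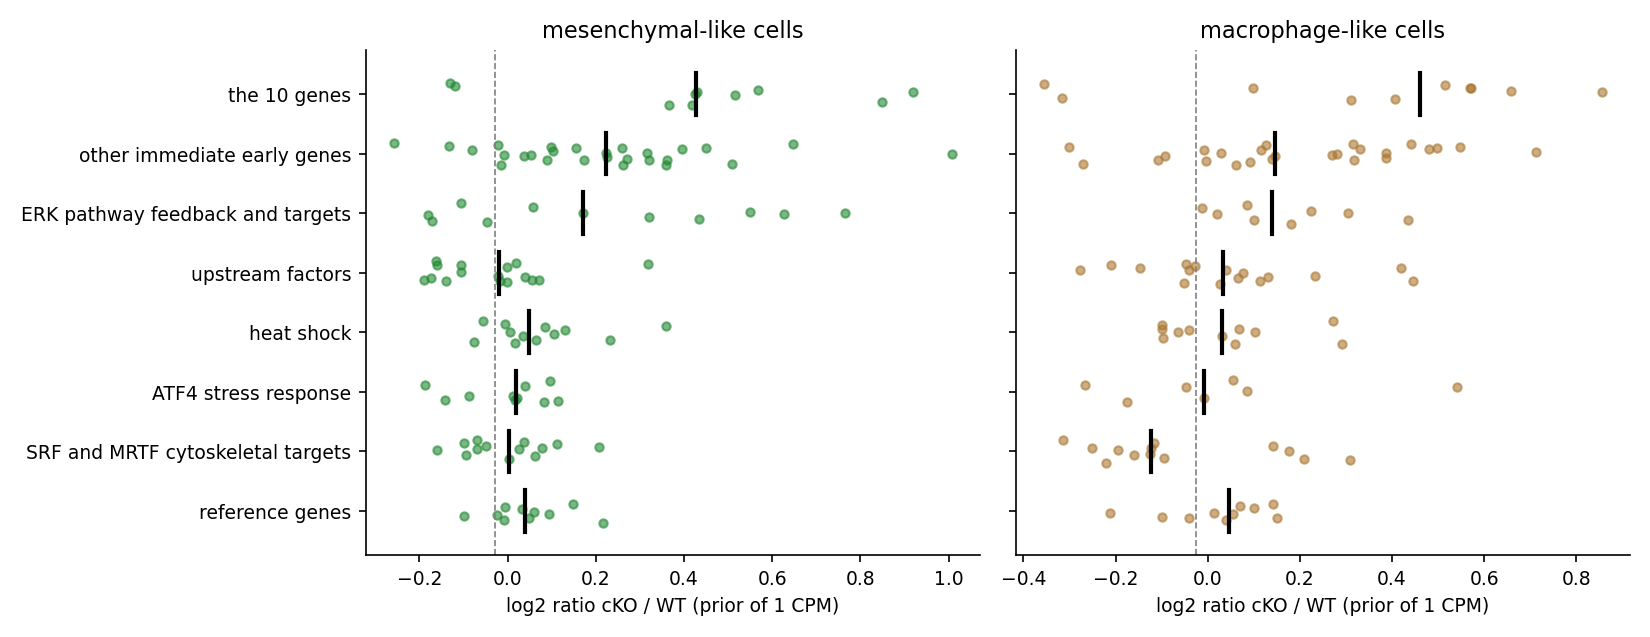
Log2 ratio of cKO over WT (prior of 1 CPM) for each gene of the lists in mesenchymal-like (left) and macrophage-like (right) cells; each point is a gene, the black bar is the list's median and the dashed line the median of all genes. All 10 members are drawn, and of the other lists the genes that reached 10 CPM; in mesenchymal-like cells the members' median was 0.43 and that of the heat shock genes 0.05.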

How the data were processed

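The authors deposited raw UMI counts of genes by barcodes as matrices from Cell Ranger 7.1.0 (per the file headers). Build mm10 (GRCm38) and Seurat are named per the submitters' processing notes; the sources used here do not say whether introns were counted. The gene list deposited with each library carries the other genotype in its name, while matrix and barcodes carry their own; the 2 lists were identical, so no value depends on it. Barcodes with at least 500 genes, 1000 UMIs and at most 15% mitochondrial UMIs were kept (8171 of 9125 WT, 5506 of 6140 cKO). Scrublet marked 2 cells in each library (0.0245% and 0.0363%), so its threshold had not worked, and the highest scores at 0.8% per 1000 cells were removed (534 and 243).

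Both libraries were clustered together with scanpy 1.11.5 and leidenalg 0.10.2 (2000 variable genes, 30 components, 15 neighbours, resolution 0.5, no batch correction). A cluster was called "like" a class when at least 3 of its markers stood 2-fold above the mean of the clusters (1.5-fold for states), a scoring rule set with the data in view; otherwise it stayed unnamed. UMIs were summed per library and class and given as CPM with exact Poisson intervals, ratios with exact conditional binomial intervals, shares with exact Clopper-Pearson intervals and differences of shares with Newcombe intervals, all at 95%. Log2 ratios used a prior of 1 CPM. Zero counts carry the upper Poisson bound. Thinning drew UMIs without replacement, once, with a fixed seed. The ratio intervals and the way of thinning were tried on simulated counts that held counting error only. Spread between cells or libraries, clustering and naming were not tried in this way.

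All 10 members are named. Of each other list the measured genes with the largest absolute log2 ratio in mesenchymal-like cells are named, up to 4. Fewer are printed for the lists in which at most 1 gene reached 1.2-fold. Outside this rule, Spry1 and Spred2 of the ERK list are named as the 2 with intervals below 1. Also named are, of all genes the 10 most like the members, of which 1 is not reported here. The members and lists were chosen with earlier results of these data known. Gene positions come from GENCODE M21, which held 32235 of 32285 identifiers. Promoters come from the RefSeq table for GRCm38.p6, in which 7 of 10 members had a window that was used; 50 bases after each start were left out.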

Additional observations from a re-analysis of the deposited data

Results flagged for a closer look

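Of 124 listed genes, members included, 90 reached 10 CPM in both the mesenchymal-like and the macrophage-like class. Of these, 11 stood on opposite sides of 1 in the classes, each with intervals that did not hold 1; the difference between the classes was not tested, with 1 library a group. None of the 10 members was among them. The ratio of cKO over WT was above 1 in mesenchymal-like and below 1 in macrophage-like cells for 6 genes. Nfkbiz, an immediate early gene, had 1.44 and 0.806, and Tagln, a cytoskeletal gene, 1.16 and 0.916. Tpm2 had 1.03 and 0.838, Atf5 1.03 and 0.827, Hspa8 1.06 and 0.933, and Hspe1 1.02 and 0.935. The ratio was below 1 in mesenchymal-like and above 1 in macrophage-like cells for the others. Atf4, the factor of the stress response list, had 0.942 and 1.46. Actb had 0.934 and 1.10, Flna 0.937 and 1.13, Jund 0.946 and 1.11, and Map2k1, a kinase of the ERK pathway, 0.929 and 1.10.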

How the results depend on the processing

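No paired analysis was possible because each group is 1 library and the labels carry no replicate numbers. For the same reason no library could be left out. Over 12 alternatives in mesenchymal-like cells (other cell filters, doublets kept, finer clustering, the members allowed in the clustering, Prrx1 UMIs in place of clusters, equal weight per cell, median scaling, a prior of 5 CPM, deep or shallow cells only, and states 0, 3 and 4 only, the last chosen after seeing the data), the median log2 ratio of the 10 genes stayed between 0.36 and 0.49. The count of members at least 1.2-fold higher was 7 or 8 under the 11 of these in which it was counted (all but the prior of 5 CPM). In macrophage-like cells it was 7 under the 8 alternatives run there (cell filters, doublets, finer clustering, members in the clustering, marker UMIs in place of clusters, equal weight and median scaling). At 1.5-fold it was 2 in mesenchymal-like and 3 in macrophage-like cells, by construction a stricter count. The difference in cells with at least 5 members was 1.28 percentage points thinned to 5000 UMIs, 3.02 thinned to 10000, and 1.97 for at least 7 members, all above 0. Jun reversed in cells under 20000 UMIs, at a ratio of 1.09 with an interval that held 1. The cause was not tested. Atf3 stayed below 1, with ratios between 0.814 and 0.971 over its alternatives. Its interval held 1 in deep cells only, in shallow cells only, with median scaling and in states 0, 3 and 4 only. Median scaling moved log2 ratios by less than 0.1 in both classes. Detection of the rarer members is limited by depth: at 5000 UMIs most cells hold at most 1 of the 10 genes in the mesenchymal-like class.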

Other observations

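A small set of mesenchymal-like cells led by Rgs5, Col10a1 and Myh11, genes known from mural cells and cartilage (10 WT, 20 cKO cells), held the 10 genes at 525 CPM in WT and 972 CPM in cKO, against 296 and 378 CPM over all mesenchymal-like cells. In its cKO cells Egr1 stood at 422 CPM (373 to 475) on 275 UMIs. With so few cells the libraries are not compared.

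An unnamed cluster of shallow cells nearest to macrophages (69 WT, 151 cKO cells, medians 1697 and 1496 UMIs) had Atf3 among its leading genes although Atf3 was kept out of the clustering, at 125 CPM (73.8 to 197) in WT and 182 CPM (136 to 239) in cKO. The macrophage-like class held it at 128 and 103 CPM.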
